A study of Mus musculus with 12 samples.

Results

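The red cell and platelet program was followed through 10 genes in 12 RNA libraries of mouse acute myeloid leukemia cells: the transcription factors Gata1, Gata2, Gfi1b, Klf1 and Nfe2, the cofactor Zfpm1, the transferrin receptor Tfrc, and the globins Hbb-bt, Hbb-b2 and Hba-a1. They were chosen by symbol, with earlier results of these data known, and all 10 are among the 24589 genes of the deposited table. Of these, 9 passed the filter of at least 1 TPM in at least 2 libraries. TPM is a gene's length-corrected share of a library's transcripts, scaled to a total of 1000000. Klf1 did not pass and is given by its values only. Hbb-bt and Hbb-b2 had the same value in 12 of 12 libraries, so the pair is described as 1 measurement although it fills 2 rows of every count.

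The cells are called NRAS/AE9a, which by the name carry NRAS and AML1-ETO9a, a shortened form of the AML1-ETO fusion protein, and all groups share this background. The 2 genotypes, wild type (WT) and knockout of Tet2 (KO), were each sampled at 0, 4 and 8 h of actinomycin D at 5 µg/ml, with 2 libraries in each of the 6 groups. Actinomycin D blocks transcription, so that transcripts already made are lost at their own rates. Tet2 encodes an enzyme that oxidises 5-methylcytosine, and the series title names its action on mRNA as the subject. Since each genotype is a single line as far as the labels say, genotype cannot be told apart from any other difference between the cells. It is not stated whether the 2 libraries of a group are separate cultures, so a p-value here covers the spread between libraries, which may be technical. Tet2 itself stood at 13.05 and 16.03 TPM in WT and at 10.19 and 10.16 TPM in KO cells at 0 h, and the KO libraries were also the lower ones at 4 and 8 h. The labels do not give the deleted part of Tet2, so a value for the whole gene does not check the knockout.

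As background, GATA2 is the GATA factor of stem and progenitor cells and of mast cells, and GATA1 takes its place as cells become erythroid or megakaryocytic. ZFPM1 (FOG1) binds GATA1 as a cofactor, GFI1B is a repressor of the same lineages, KLF1 switches on adult beta-globin and other red cell genes, and NFE2 is the larger subunit of NF-E2, needed for platelet release and active at the globin locus. Red cell precursors take up iron through the transferrin receptor for heme, which is joined to the alpha and beta chains of globin. GATA1 is also used in mast cells, basophils and eosinophils, so these genes are not proof of a red cell.

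The DNA before the start sites of 3 members is shown because GFI1B and the globins are textbook targets of GATA and KLF factors and Gfi1b and Hbb-bt had the largest genotype differences below while Hba-a1 had none that passed. The sequences are RefSeq promoters of GRCm38.p6, the 250 bases before the gene's start, read 5′ to 3′ on the gene's strand. Capitals mark matches on either strand to the GATA letters (AGATAA or AGATAG, or the same with T in place of the leading A) or to the CACCC-type letters CCNCNCCC. The windows are chr2:28621983-28622232 on the minus strand, chr7:103813924-103814173 on the minus strand and chr11:32283422-32283671 on the plus strand.
Gfi1b: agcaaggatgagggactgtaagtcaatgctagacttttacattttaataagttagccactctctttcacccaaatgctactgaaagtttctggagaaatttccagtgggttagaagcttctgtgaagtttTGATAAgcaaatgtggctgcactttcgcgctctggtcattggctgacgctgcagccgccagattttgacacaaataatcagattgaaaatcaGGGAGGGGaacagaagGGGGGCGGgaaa
Hbb-bt: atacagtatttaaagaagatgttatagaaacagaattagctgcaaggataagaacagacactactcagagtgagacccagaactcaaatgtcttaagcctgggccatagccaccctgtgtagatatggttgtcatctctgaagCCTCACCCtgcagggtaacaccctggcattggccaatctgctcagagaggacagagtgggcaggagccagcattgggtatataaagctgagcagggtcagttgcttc
Hba-a1: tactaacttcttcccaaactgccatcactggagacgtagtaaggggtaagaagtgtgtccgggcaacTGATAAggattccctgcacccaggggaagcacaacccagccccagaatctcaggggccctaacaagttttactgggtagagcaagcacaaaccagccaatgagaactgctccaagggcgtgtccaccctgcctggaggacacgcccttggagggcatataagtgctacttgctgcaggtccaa

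In Gfi1b the GATA match TGATAA lies at -120 from the start site, with CACCC-type matches at -28 and -12. Hbb-bt holds the CACCC-type match CCTCACCC at -107 and no match to the GATA letters searched, and Hba-a1 holds TGATAA at -183 and no CACCC-type match. RefSeq promoters of 300 bases, 250 before and 50 after the start, were found for 8 of the 10 members. A GATA match was in 3 of these 8, the third being Klf1 at -80, and 29.8% of all 32851 promoters held such a match. CACCC-type letters were in 8 of the 10 entries, from 6 of the 8 members, against 49.5% of all promoter entries. A match is a run of letters and not a measured binding site.

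Tfrc is the member with known control of its mRNA's lifetime: when iron is scarce, iron regulatory proteins bind hairpins after the stop codon and protect the transcript. Its transcript Tfrc-201 (GENCODE M21 on GRCm38) has 2458 bases after the stop codon. A C, 5 bases of any kind and the loop CAGTGN occurred in this order 5 times in it, all after the stop codon, and in 4 of these the 5 bases before the loop could pair with the 5 after it. Those 4 hairpins are shown with the loop in capitals, by the position of the loop's first base in the transcript, because the change of Tfrc over 8 h of actinomycin D differed between the genotypes.
Tfrc-201 at 3327: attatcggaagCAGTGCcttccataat
Tfrc-201 at 3706: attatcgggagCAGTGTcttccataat
Tfrc-201 at 3771: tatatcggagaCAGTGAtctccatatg
Tfrc-201 at 3818: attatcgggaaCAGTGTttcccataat
All 4 hairpins share the loop letters CAGTG and differ in the stem, and those at 3706 and 3818 also share the base after these letters. Another decay-linked run, the pentamer ATTTA, was found after the stop codon 5 times in Tfrc, 3 in Gata2, 1 each in Gfi1b and Hbb-bt, and 0 in the transcripts of Gata1, Hba-a1, Klf1, Nfe2 and Zfpm1 that were read.

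TPM corrects for transcript length, so levels can be set side by side between genes. In WT cells at 0 h the order by mean was Nfe2 (131 ± 13 TPM, SD, n = 2), Tfrc (78.4 ± 6.22), Hbb-bt and Hbb-b2 (49 ± 7.02), Gata2 (23.3 ± 2.5), Zfpm1 (7.39 ± 1.32), Gfi1b (3.62 ± 0.29), Hba-a1 (2.84 ± 1.95), Gata1 (0.83 ± 0.0283) and Klf1 (0.08 ± 0.113). Neighbours in this order did not overlap in their libraries except the identical pair Hbb-bt and Hbb-b2, and Gfi1b with Hba-a1. In KO cells the order was Hbb-bt and Hbb-b2 (294 ± 0.615), Nfe2 (145 ± 3.01), Tfrc (124 ± 1.58), Gata2 (60.6 ± 1.76), Zfpm1 (16.5 ± 0.283), Gfi1b (14.5 ± 1.56), Gata1 (2.31 ± 0.0849), Hba-a1 (0.93 ± 1.32) and Klf1 (0.08 ± 0). Only Hba-a1 with Klf1, and the identical pair, overlapped there. The beta-globin pair thus stood below Nfe2 and Tfrc in WT and above both in KO cells, and the remaining order was the same apart from Hba-a1. In both genotypes Gata2 was the leading GATA factor at 0 h and Klf1 was near 0.

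In GENCODE M21 on GRCm38 the members lie apart in the genome. Gata2 is at chr6:88193891-88207032, Gata1 at chrX:7959260-7978071 and Zfpm1 at chr8:122282141-122337251. Gfi1b is at chr2:28609450-28621982, Klf1 at chr8:84901928-84905291 and Nfe2 at chr15:103248212-103258403. Hbb-bt is at chr7:103812524-103813996, Hba-a1 at chr11:32283511-32284465 and Tfrc at chr16:32608920-32632794.

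**Figure D1:**
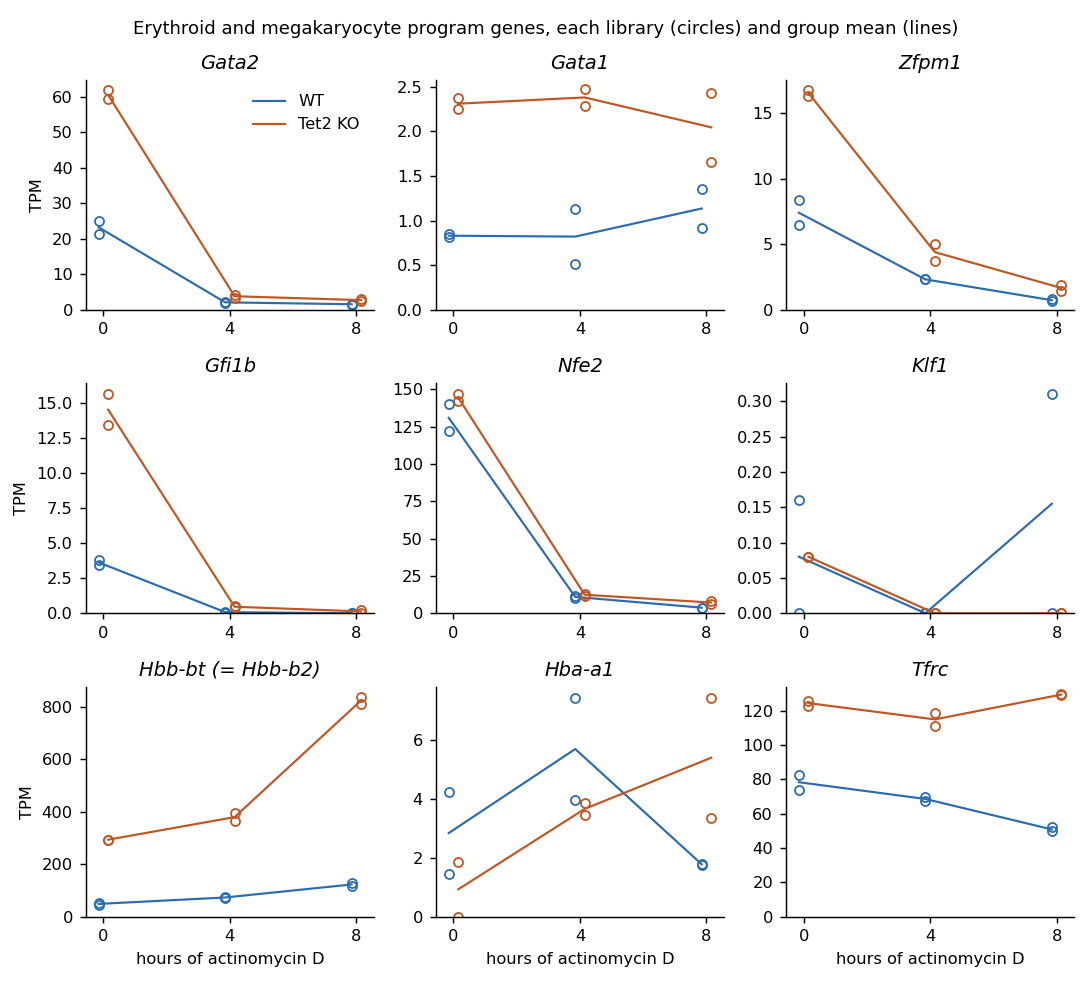
TPM (vertical axis, a separate linear scale in each panel) of the members against hours of actinomycin D (horizontal axis), with 1 circle per library and a line through the group means of WT (blue) and KO (orange), and Hbb-b2 drawn with Hbb-bt, whose values it shares. The beta-globin pair and Tfrc lie higher in KO at all times, Gata2, Gfi1b, Zfpm1 and Nfe2 drop within 4 h in both genotypes, and Klf1 stays at or below 0.31 TPM.

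KO cells held more RNA of most of these genes than WT cells before the drug was added. Fold differences are fitted by limma on log2(TPM + 1), with Benjamini-Hochberg adjusted p over 11152 genes and a threshold of 0.05, and the added 1 makes the fitted change of a low gene smaller than the ratio of its TPM. At 0 h 7 of the 9 tested members were higher in KO cells, against 14.3% of all tested genes, and 0 were lower, against 11.5%. Because the members were chosen with earlier results of these data known, these shares do not test the set. The members' median difference was 1.07 on the log2 scale and that of all tested genes 0.06. In bulk RNA, more cells of a type and more RNA per cell cannot be told apart.

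At 0 h Gata2 read 21.49 and 25.02 TPM in WT and 59.37 and 61.86 in KO cells. Both KO values lay above both WT values, the ratio of means was 2.61, and the fitted difference was 1.35 ± 0.15 (SE, limma adjusted p = 4.4e-05). Gata1 was far lower, at 0.85 and 0.81 TPM in WT and 2.37 and 2.25 in KO cells, again without overlap. Its difference was 0.85 ± 0.19 (adjusted p = 0.00591), and the ratio of means was 2.78. Zfpm1, the GATA1 cofactor, read 6.46 and 8.33 TPM in WT and 16.33 and 16.73 in KO cells, and its difference was 1.07 ± 0.16 (adjusted p = 0.000456). In GENCODE the annotated gene Gm20388 overlaps Zfpm1 on the same strand, so reads could have been split between them and its level is uncertain.

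Gfi1b had the largest difference among the members that are transcription factors. It read 3.83 and 3.42 TPM in WT and 15.61 and 13.41 in KO cells, a ratio of means of 4 and a fitted difference of 1.74 ± 0.15 (limma adjusted p = 4.7e-06). Nfe2 behaved otherwise, with 122 and 140 TPM in WT and 147 and 142 in KO cells. The KO libraries were the higher ones but by little, and the difference of 0.14 ± 0.12 did not pass (adjusted p = 0.434). Klf1, the red cell factor, read 0 and 0.16 TPM in WT and 0.08 and 0.08 in KO cells, a level at which no difference can be read.

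The beta-globin rows Hbb-bt and Hbb-b2 showed the widest gap of all members. Each read 44.03 and 53.96 TPM in WT and 294 and 293 in KO cells at 0 h, with a ratio of means of 5.99. The fitted difference of 2.57 ± 0.09 (limma adjusted p = 2.5e-09) exceeded that of 99.9% of tested genes. With identical values in every library the rows do not tell which beta gene was read, and Hbb-b2 has no entry of its own in GENCODE M21. Hbb-bs, whose 441 coding bases differ from those of Hbb-bt at 1 position, is listed at 0 in all libraries.

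Alpha-globin did not follow. Hba-a1 read 1.46 and 4.22 TPM in WT and 1.86 and 0 in KO cells at 0 h, the groups overlapped, and the difference of -1.08 ± 0.47 did not pass (limma adjusted p = 0.12). It passed without KO 0 h replicate 1 (adjusted p = 0.0161), in a range of 0.0161 to 0.707 over 11 alternatives. Hba-a2, which differs from Hba-a1 at 1 of 426 coding bases, is listed at 0 in all libraries, so the level of either alpha gene is uncertain. In KO cells at 0 h each beta chain row was thus at 293 TPM or more while Hba-a1 was at or below 1.86.

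Tfrc, the iron uptake receptor, read 74.01 and 82.8 TPM in WT and 123 and 126 in KO cells. The groups did not overlap, and the difference was 0.66 ± 0.07 (limma adjusted p = 4.4e-05), with a ratio of means of 1.59.

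After actinomycin D the genotypes still differed. At 4 h 7 of 9 members were higher in KO cells, against 24.9% of all tested genes, and 0 lower, against 13.7%, with a median of 0.69 in the members and 0.10 in all. At 8 h 7 were higher, against 37.3%, and 0 lower, against 12.1%, with medians of 0.78 and 0.20. These 2 counts are not of the same genes: Gfi1b passed at 4 h (0.44 ± 0.15, adjusted p = 0.0341) and not at 8 h (0.17 ± 0.15, 0.363), and Nfe2 passed at 8 h (0.78 ± 0.12, 0.00018) and not at 4 h (0.17 ± 0.12, 0.298). The share of all genes higher at 8 h depended on the scaling. It was 4161 higher and 1350 lower as deposited, 2834 and 2657 after median-ratio scaling, which sets the typical gene's change near 0, and 1908 and 3259 after scaling to a list of housekeeping genes.

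For the beta-globin rows the gap stayed wide, at 2.35 ± 0.09 at 4 h (limma adjusted p = 4.7e-09) and 2.73 ± 0.09 at 8 h (1.1e-09). The ratio of means was 5.99 at 0 h, 5.17 at 4 h and 6.68 at 8 h. For Tfrc the ratio was 1.59, 1.68 and 2.55, and the fitted difference reached 1.33 ± 0.07 at 8 h (adjusted p = 5.9e-08). Both genes kept KO above WT in all libraries at every time.

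The GATA factors and Zfpm1 also stayed higher in KO cells, from low levels. Gata2 differed by 0.64 ± 0.15 at 4 h (limma adjusted p = 0.00566) and 0.53 ± 0.15 at 8 h (0.0105), with ratios of means of 1.82 and 1.75. The 4 h call was lost without WT 4 h replicate 2 or KO 4 h replicate 1 (adjusted p up to 0.0618), and the 8 h call with scaling to the housekeeping list and without WT 8 h replicate 1 or KO 8 h replicate 1 (up to 0.152). Zfpm1 differed by 0.69 ± 0.16 (0.00568) and 0.62 ± 0.16 (0.00745), lost at 4 h without KO 4 h replicate 2 (0.0668) and at 8 h without KO 8 h replicate 1 (0.0587). Gata1 differed by 0.91 ± 0.19 at 4 h (0.00283), where WT libraries read 0.51 and 1.13 TPM and KO libraries 2.48 and 2.28. At 8 h Gata1 differed by 0.51 ± 0.19 (0.0438), a call lost in 7 of 11 alternatives, including those without WT 8 h replicate 1 and without KO 8 h replicate 2 (range 0.0265 to 0.27). The 4 h call of Gfi1b was lost in 5 of 11, with scaling to the housekeeping list and without each of the 4 libraries of that time (range 0.00944 to 0.156).

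**Figure D2:**
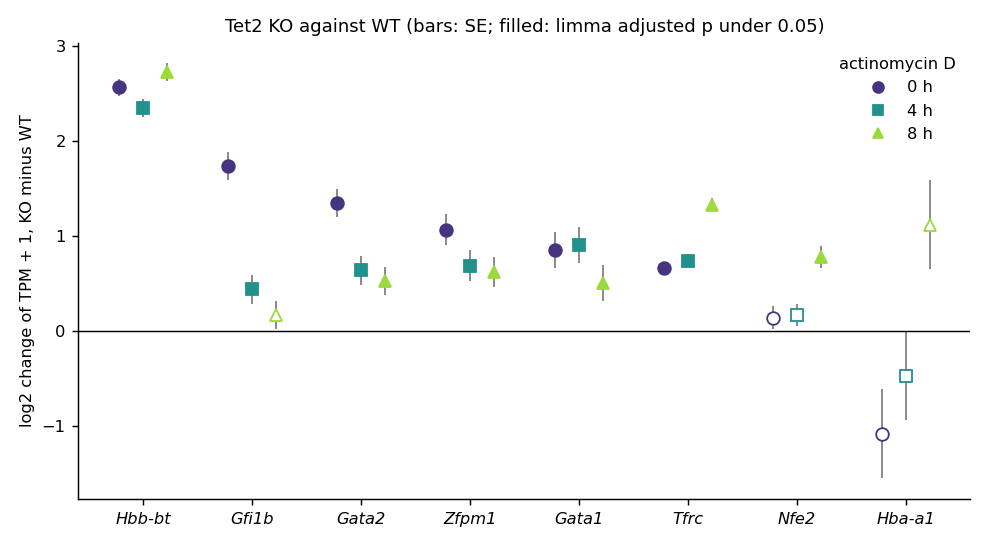
Fitted difference KO minus WT on the log2(TPM + 1) scale (vertical axis) for each tested member (horizontal axis, Hbb-b2 equal to Hbb-bt) at 0 h (circles), 4 h (squares) and 8 h (triangles), with bars of 1 SE and filled symbols where limma's adjusted p is under 0.05. Hbb-bt lies between 2.35 and 2.73 at all times, Gfi1b goes from 1.74 to 0.17, Tfrc from 0.66 to 1.33, and Hba-a1 has wide bars on both sides of 0.

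Under actinomycin D the members took different courses. By 4 h Nfe2, Gata2 and Gfi1b were at 8.99% of their 0 h mean or less in both genotypes, and Zfpm1 was at 26.6% or more and fell further by 8 h. Tfrc fell in WT cells as deposited, no change of Gata1 passed the test, and the beta-globin rows gained share. All such changes are relative to the rest of the library, since TPM sum to 1000000 in each and the labels name no added RNA standard, and a transcript lost more slowly than most gains TPM. The median change of all tested genes was -0.81 at 4 h and -1.40 at 8 h in WT, and -0.70 and -1.16 in KO cells. At 4 h in WT cells 2 of 9 members were higher than at 0 h, against 6.77% of all tested genes, and 5 lower, against 71.0%, and at 8 h again 2 were higher, against 8.48%, and 5 lower, against 80.2%. In KO cells 3 were higher at 4 h, against 4.88%, and 4 lower, against 68.0%, and at 8 h 3 were higher, against 9.54%, and 4 lower, against 75.4%. The 2 beta-globin rows are among the higher ones in each of these 4 counts. The members' median change was -0.61 in WT and -0.13 in KO cells at 8 h. The 0 h libraries are shared by the 4 h and 8 h comparisons of a genotype. The share of genes called higher depended on the scaling here too, with 4247 against 4502 lower in WT cells at 8 h and 4382 against 4480 in KO cells after median-ratio scaling, and 946 against 8944, and 1064 against 8405, as deposited.

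Nfe2 had the largest fitted fall of the members on the log2(TPM + 1) scale, in WT and in KO cells, an order that rests on its high starting level: by the percent of the 0 h mean left at 8 h, Gfi1b was lower in both genotypes and Gata2 in KO cells. Nfe2 went from 122 and 140 TPM at 0 h to 11.76 and 10.16 at 4 h and 3.79 and 3.72 at 8 h, leaving 2.86% of its 0 h mean. In KO cells it went from 147 and 142 to 13.07 and 11.74 and then 6.36 and 8, leaving 4.97%. The libraries of the 3 times did not overlap in either genotype, and the 8 h change was -4.79 ± 0.12 in WT (limma adjusted p = 1.4e-11) and -4.16 ± 0.12 in KO cells (6.0e-11).

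Gata2 fell in both genotypes. WT libraries read 2.29 and 1.89 TPM at 4 h and 1.45 and 1.65 at 8 h, and KO libraries 4.26 and 3.36, then 3.09 and 2.33. The means at 4 h were 8.99% of the 0 h mean for WT and 6.29% for KO cells, those at 8 h were 6.67% and 4.47%, and the 8 h changes were -3.25 ± 0.15 (limma adjusted p = 5.8e-10) and -4.06 ± 0.15 (2.1e-10). Most of the loss of both Nfe2 and Gata2 had taken place by 4 h.

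Gfi1b fell to the floor of the table. WT libraries read 0.04 and 0.12 TPM at 4 h and 0 and 0 at 8 h, and KO libraries 0.51 and 0.42, then 0.21 and 0.05. The 4 h means were 2.21% and 3.2% of those at 0 h, 0.896% was left in KO cells at 8 h, and limma's 8 h changes were -2.21 ± 0.15 in WT (adjusted p = 1.5e-08) and -3.78 ± 0.15 in KO cells (3.2e-10). At such values the fitted change is set largely by the starting level and by the added 1.

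Zfpm1 fell more slowly. It read 2.32 and 2.31 TPM at 4 h and 0.66 and 0.79 at 8 h in WT cells, 31.3% and 9.8% of the 0 h mean. In KO cells it read 3.74 and 5.04, then 1.87 and 1.44, which is 26.6% and 10%. The 8 h changes were -2.27 ± 0.16 and -2.73 ± 0.16 (limma adjusted p = 2.8e-08 and 7.0e-09).

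Gata1 had no fitted loss like that of the factors above, and from its low starting level the added 1 left little room for one. WT libraries read 0.51 and 1.13 TPM at 4 h and 0.92 and 1.35 at 8 h, and KO libraries 2.48 and 2.28, then 1.66 and 2.43, overlapping the 0 h values except in WT at 8 h. No change in either genotype passed, with 8 h values of 0.22 ± 0.19 in WT (limma adjusted p = 0.301) and -0.13 ± 0.19 in KO cells (0.53). In KO cells this change lay above the median of all tested genes (-1.16). In WT cells Gata1 began at a mean of 0.83 TPM. With 1 added, its fitted loss could not have reached the WT median of -1.40 even at 0 TPM, so its place above that median was fixed in advance. By the ratio of means, which the added 1 does not touch, 137% of Gata1 was left in WT and 88.5% in KO cells at 8 h. After median-ratio scaling its 8 h change was 1.05 in WT and 0.83 in KO cells, both past the threshold.

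The beta-globin rows gained share. WT libraries went from 44.03 and 53.96 TPM to 71.61 and 75.38 at 4 h and 127 and 119 at 8 h, 252% of the 0 h mean. KO libraries went from 294 and 293 to 365 and 394 and then 811 and 836, 281% of the 0 h mean. No library of a later time overlapped an earlier one, the 8 h changes were 1.32 ± 0.09 in WT (limma adjusted p = 1.3e-08) and 1.49 ± 0.09 in KO cells (5.9e-09), and the direction was up under both other scalings. The change in WT cells was above that of 98.6% of tested genes.

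Hba-a1 was too variable to follow closely. It read 3.96 and 7.42 TPM at 4 h and 1.79 and 1.77 at 8 h in WT cells, and 3.46 and 3.86, then 3.36 and 7.43, in KO cells. In WT cells no change passed (8 h -0.37 ± 0.47, limma adjusted p = 0.472, with 0.80 after median-ratio scaling). In KO cells it rose from 1.86 and 0 by 1.46 ± 0.47 at 4 h (0.0143) and 1.84 ± 0.47 at 8 h (0.00283). The 4 h call was lost without KO 0 h replicate 2, the library at 0, without KO 4 h replicate 2 and with no filter on low genes (adjusted p up to 0.185).

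As deposited, Tfrc took different courses in the 2 genotypes. WT libraries went from 74.01 and 82.8 TPM to 69.65 and 67.67 at 4 h and 49.72 and 52.08 at 8 h, with no overlap between times, and KO libraries from 123 and 126 to 111 and 119 and then 129 and 130. At 8 h 64.9% of the 0 h mean was left in WT cells and 104% in KO cells. As deposited Tfrc fell by 0.61 ± 0.07 in WT cells at 8 h (limma adjusted p = 4.6e-06), but this is less than the median loss of all genes, and the change turned to 1.08 with median-ratio scaling and to 0.06 with the housekeeping scaling. In KO cells its 8 h change was 0.06 ± 0.07 (0.46). The WT fall at 4 h (-0.19 ± 0.07, adjusted p = 0.035) was lost in 5 of 12 alternatives, among them those without WT 0 h replicate 2, WT 4 h replicate 1 or WT 4 h replicate 2, and was 0.81 after median-ratio scaling.

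**Figure D3:**
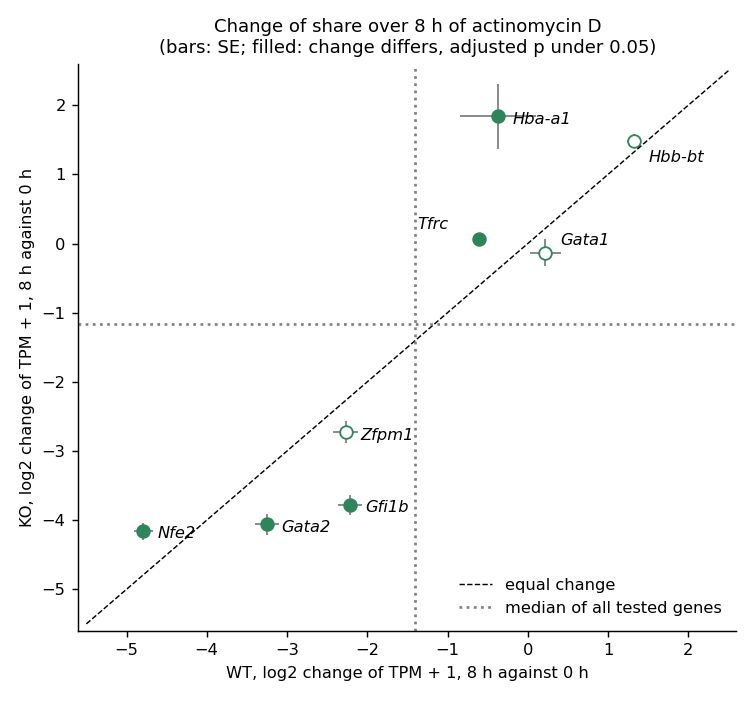
Change from 0 h to 8 h of actinomycin D on the log2(TPM + 1) scale in WT (horizontal axis) and KO cells (vertical axis), 1 point per tested member with bars of 1 SE, the dashed line of equal change, dotted lines at the median of all tested genes (-1.40 and -1.16), and filled points where the change differed between genotypes. Nfe2, Gata2, Gfi1b and Zfpm1 lie below both medians, and Tfrc, Gata1, Hba-a1 and Hbb-bt above both, with Tfrc at -0.61 in WT (1.08 after median-ratio scaling) and 0.06 in KO.

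The difference of the change between genotypes was tested directly. By 4 h 0 members had a higher change in KO cells, against 0.0538% of all tested genes, and 1 had a lower one, against 0.296%. By 8 h 3 were higher, against 17.3%, and 2 lower, against 2.63%, and all such counts share the 0 h libraries. Over all genes 1929 were higher and 293 lower by 8 h as deposited, 986 and 894 with median-ratio scaling, and 453 and 1295 with the housekeeping scaling. At 4 h these numbers were 6 and 33, 28 and 134, and 16 and 130.

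Tfrc held its share better in KO cells by 0.67 ± 0.10 at 8 h (limma adjusted p = 0.00151). The direction was the same under both other scalings, and the call was lost only after scaling to the housekeeping list, at 0.27 (adjusted p = 0.0541, in a range of 0.000558 to 0.0541 over 16 alternatives). By 4 h the difference was 0.08 ± 0.10 (0.768), and the step from 4 to 8 h was not tested by itself. Nfe2 also fell less in KO cells, by 0.63 ± 0.17 (0.0217), a call lost in 6 of 16 alternatives, those of both other scalings and those without WT 0 h replicate 2, KO 0 h replicate 1, KO 0 h replicate 2 or KO 8 h replicate 2 (range 0.0131 to 0.184). For Hba-a1 the difference of 2.21 ± 0.67 (0.0364) was lost in 10 of 15, among them those without WT 0 h replicate 2, either WT 8 h library, KO 0 h replicate 2 or KO 8 h replicate 2 (range 0.00931 to 0.175, estimates 1.45 to 3.99).

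Gfi1b and Gata2 had fitted losses that were larger in KO cells. For Gfi1b the difference was -1.30 ± 0.21 by 4 h (limma adjusted p = 0.0239) and -1.57 ± 0.21 by 8 h (0.000767), and for Gata2 -0.81 ± 0.21 by 8 h (0.0192). These rest on the number added before the logarithm: with 0.1 added in place of 1, Gfi1b had -0.29 (0.881) and -0.86 (0.357) and Gata2 -0.62 (0.124). The call of Gata2 was also lost without WT 0 h replicate 1, KO 0 h replicate 1, KO 0 h replicate 2 or KO 8 h replicate 2, and the 4 h call of Gfi1b without any 1 of the 0 h and 4 h libraries except WT 0 h replicate 2. By the ratio of means, KO cells kept 6.29% of Gata2 at 4 h and WT cells 8.99%, and KO cells kept 3.2% of Gfi1b and WT cells 2.21%. For the beta-globin rows the 8 h changes of the genotypes differed by 0.16 ± 0.12 (0.387), for Gata1 by -0.35 (0.407) and for Zfpm1 by -0.45 (0.195), none past the threshold, and for beta-globin the estimate turned to -0.08 with median-ratio scaling and -0.24 with the housekeeping scaling.

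Other genes of the program were read from lists by function. Among 25 further regulators of red cell and platelet genes, 22 were tested, and at 0 h 6 were higher, against 14.3% of all tested genes, and 4 lower, against 11.5%, in KO cells, with a median of 0.02 against 0.06 for all tested genes. Cbfa2t3 (ETO2), a corepressor in GATA1 and TAL1 complexes, was higher by 1.23 ± 0.15 (limma adjusted p = 0.000105), and Tal1, the basic helix-loop-helix factor of these complexes, by 0.94 ± 0.12 (0.000157). Spi1 (PU.1), a myeloid factor that opposes GATA1, differed by -0.43 ± 0.08 (0.00146). The count of higher genes includes Meis1, which reached 1 TPM in KO libraries alone and so passed the filter only where it is high. Meis1, a homeobox factor of stem cells and megakaryocytes, read 0.26 and 0.46 TPM in WT and 3.86 and 2.88 in KO cells at 0 h. Without WT 0 h replicate 1, KO 0 h replicate 1 or KO 0 h replicate 2 only 3 were higher, and without WT 0 h replicate 2, KO 0 h replicate 1 or KO 0 h replicate 2 only 1 was lower. Under actinomycin D 0 regulators were higher and 21 lower in WT cells at 8 h, where 80.2% of all tested genes were lower, and 0 and 22 in KO cells, where 75.4% were. The counts were 4 and 15, and 3 and 17, after median-ratio scaling.

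Among globins other than the members Hbb-y reached more than a few TPM, in some libraries. Of 13 listed globin genes and their chaperone, 12 were in the table, 5 of them at 0 in all libraries, and 6 were tested. At 0 h 2 were higher in KO cells, against 14.3% of all tested genes, and 0 lower, against 11.5%. The 2 higher are the beta-globin rows described above, which are members and form 1 measurement. Hbb-b1 read 0 to 2.23 TPM over all libraries, and the embryonic Hbb-y read from 0 to 22.51 TPM with replicates as far apart as 0 and 14.35.

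Of 13 tested heme synthesis genes 1 was higher and 2 lower in KO cells at 0 h, near the shares of all tested genes (14.3% and 11.5%), and these fell to 0 higher without any 1 library of that time. Alas1, the housekeeping form of the first enzyme, was lower (-0.28 ± 0.08, limma adjusted p = 0.0206), and Alas2, the red cell form, was at 0 in 11 of 12 libraries and at 0.04 TPM in WT 8 h replicate 2. Without WT 0 h replicate 2, KO 0 h replicate 1 or KO 0 h replicate 2 there were also 0 lower. Of 13 iron genes other than Tfrc, 0 were higher and 5 lower at 0 h, against the same 14.3% and 11.5%. The ferritin heavy chain Fth1 stood at 3711 TPM in WT and 1782 in KO cells (-1.06 ± 0.06, 2.2e-07), the light chain Ftl1 differed by -0.34 ± 0.05 (0.000608), and the iron exporter Slc40a1 differed by -1.17 ± 0.15 (0.000161). Fbxl5, which targets iron regulatory protein 2 for degradation, differed by -0.82 ± 0.17 (0.00323). Under actinomycin D both ferritin chains gained share at 8 h, in WT cells by 1.76 ± 0.06 for Fth1 and 1.73 ± 0.05 for Ftl1.

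Of 27 red cell membrane and enzyme genes, 18 were below 1 TPM in all libraries and 9 were tested. At 0 h 5 were higher, against 14.3% of all tested genes, and 1 lower, against 11.5%, in KO cells, and 3 higher without WT 0 h replicate 2 or KO 0 h replicate 1, 2 without WT 0 h replicate 1, and 1 without KO 0 h replicate 2. Car2, carbonic anhydrase 2, was the most changed, from 1.76 and 1.88 TPM in WT to 15.43 and 18.05 in KO cells (2.65 ± 0.18, limma adjusted p = 6.8e-07). Blvrb, a heme breakdown enzyme, was lower (-0.75 ± 0.10, 0.000145).

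Platelet and megakaryocyte genes were more often measurable. Of 26 listed, 16 were tested, and 8 were higher, against 14.3% of all tested genes, and 4 lower, against 11.5%, in KO cells at 0 h, with a median of 0.40 against 0.06 for all. Among them Gp5 reached 1 TPM in KO libraries alone and P2ry12 in WT libraries alone. Itga2b, the integrin chain CD41, read 6.27 and 6.19 TPM in WT and 31.07 and 30.35 in KO cells (2.13 ± 0.09, limma adjusted p = 1.4e-08). The thrombin receptor F2r was higher by 2.04 ± 0.10 (3.3e-08) and Rab27b, a platelet granule GTPase, by 1.76 ± 0.13 (1.2e-06), while the tetraspanin Cd9 was lower (-0.96 ± 0.08, 4.2e-06). Under actinomycin D they went both ways: at 8 h in WT cells 7 were higher, against 8.48% of all tested genes, and 6 lower, against 80.2% (11 and 2 after median-ratio scaling), with the chemokine Pf4 at 2.02 ± 0.13 and F2r at -2.22 ± 0.10.

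Defining markers of red cells were at or near 0 beside the beta-globin signal. Of 14 erythroid markers, 3 of them members, 12 were below 1 TPM in all libraries, and Slc4a1 (the anion exchanger band 3) and Alas2 were at 0 in all 4 libraries at 0 h. The summed erythroid markers ranged from 45.75 to 58.82 TPM in WT and from 293.6 to 296.2 in KO cells at 0 h, nearly all of it Hbb-bt. Set against the program's name, Klf1 and the membrane and heme markers that define a red cell were at or near 0 in these cells, while Gata2, Nfe2, Zfpm1 and beta-globin were read. Among 12 megakaryocyte markers 8 were tested, and Gp9, Gp1bb and Gp6 stayed at or below 0.56 TPM. Their sum was 85.76 to 87.29 TPM in WT and 128.3 to 149.1 in KO cells at 0 h.

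**Figure D4:**
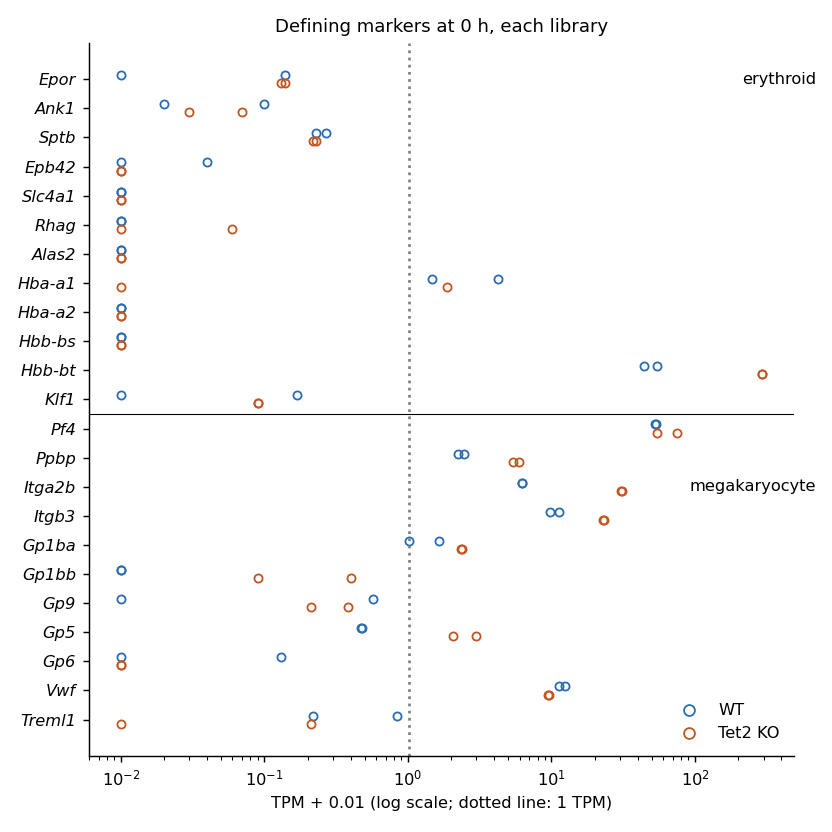
TPM plus 0.01 on a log scale (horizontal axis) of 12 of 14 erythroid and 11 of 12 megakaryocyte markers (vertical axis) at 0 h, 1 circle per library of WT (blue) and KO (orange), with a dotted line at 1 TPM and values of 0 at the left edge. Among erythroid markers Hbb-bt and Hba-a1 are the ones that reach 1 TPM. Of the megakaryocyte markers that reach it Pf4, Ppbp, Itga2b, Itgb3, Gp1ba and Gp5 lie higher in the KO libraries and Vwf lower. Pf4 (limma adjusted p = 0.194), Gp1ba (0.105) and Vwf (0.148) did not pass the threshold.

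Markers of other cell types moved with the genotype too. Mast cell and basophil markers, 13 of 14 tested, had 6 higher and 6 lower in KO cells at 0 h, against 14.3% and 11.5% of all tested genes. Their sum was 1183 to 1311 TPM in WT and 3470 to 3652 in KO cells, most of it the mast cell protease Cpa3, with means of 958 TPM in WT and 3129 in KO cells, so the sum does not describe the list. Cpa3 was higher by 1.71 ± 0.08 (limma adjusted p = 3.1e-08) and the basophil protease Mcpt8 by 1.55 ± 0.09 (2.2e-07), while Mcpt4, at 6.19 TPM in WT, was at 0 in KO cells. Myeloid and neutrophil markers, 17 of 17 tested, had 2 higher and 13 lower, against the same shares. The higher ones were Mpo (2.16 ± 0.12, limma adjusted p = 8.3e-08) and Cebpa (0.65 ± 0.12, 0.00146). Sums of the list were 26767 to 30186 TPM in WT and 12291 to 12505 in KO cells. Most of these sums was Lyz2, at 8629 to 59978 TPM over all libraries, so they do not describe the list. Gata2 and Gata1 are used by mast cells and basophils as well, and what these shifts contribute to the members' differences was not tested. B cell markers stayed at or below a sum of 1.02 TPM. Eosinophil markers, 2 of 7 tested, had 0 higher and 1 lower in KO cells at 0 h, against the same shares. Their sum ranged from 28.84 to 30.6 TPM in WT and from 29.3 to 31.68 in KO cells at 0 h. Most of it was Siglecf (0.17 ± 0.10, limma adjusted p = 0.259), so this sum does not describe the list either. The other tested marker, Prg2, was lower (-1.70 ± 0.27, 0.000632) and reached 1 TPM in WT libraries alone.

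Over the 12 libraries, which fall into 6 groups and share the drug's time course, Gata2, Gfi1b, Zfpm1 and Nfe2 had Pearson r of 0.93 to 0.99 with each other on log2(TPM + 1). Gata1, Tfrc and Hbb-bt had r of 0.76 to 0.84, and Gata1 with Gata2 had 0.20. The genes most like each member were found by the same r over the 12 libraries among 7671 genes. For the beta-globin rows they were Padi2, a peptidylarginine deiminase (0.9957), Itga2b (0.9926) and Cd200r3, a receptor of basophils and mast cells (0.9923). For Gata2 they were Fam102a (0.9956), Amigo2 (0.9932) and Spred1 (0.9925), for Nfe2 Dtl (0.9977), Psd4 (0.9975) and Arhgap27 (0.9975), and for Tfrc Pygb (0.9854), Mlec (0.9831) and Sec11a (0.9821). For Zfpm1 they included Heatr5a (0.9919) and Cep85 (0.9910). All of these r rest on 6 groups of 2 close replicates.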

How the data were processed

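RNA of 12 libraries was measured, 2 for each genotype and time. TRIzol was used for the RNA and the KAPA stranded mRNA kit for the libraries, per the labels' protocols. The authors deposited TPM per gene, 1 column per library. STAR, RSEM and mm10 are named in the submitters' processing notes. No version, annotation or strand setting is given in the sources used here. TPM keep no depth, so sequencing depth is unknown and no counting interval can be given.

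Values were used as log2(TPM + 1). The 11152 genes reaching 1 TPM in 2 or more libraries were tested with limma 3.58.1 in R 4.3.3, in a fit of all 12 libraries with a mean for each group and 6 residual degrees of freedom, a spread trended on mean expression, and Benjamini-Hochberg adjustment over all tested genes, threshold 0.05. An exact permutation test of 2 libraries against 2 cannot give a two-sided p under 0.333 and was not used. The 9 comparisons were KO against WT at each time, the later times against 0 h within WT and within KO, and the differences of these changes. The script was tested on simulated data.

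Alternatives were median-ratio scaling, scaling to 26 housekeeping genes, testing all genes, testing those whose mean reached 5 TPM, adding 0.1 or 0.5 instead of 1, no trend, a replicate block, and each library left out. Replicate numbers did not pair the libraries. All members are reported, and a few other genes that the naming rule or the marker lists hold are not reported here. From each pathway list, genes were named out of the 4 with the smallest p for KO against WT at 0 h and for the 8 h change in WT cells, and for each member with a mean of at least 5 TPM the 3 genes with the highest r, and a few others, such as Hbb-b1, Hbb-y, Alas2, Cpa3, Mcpt8, Mcpt4, P2ry12 and Gp5, were named after their values were seen. Members and lists were chosen with earlier results of these data known. Some lists share genes, such as Spi1 and Itga2b. Libraries of a group correlated at 0.991 to 0.994 and those of different groups at 0.974 or less, over genes, and 9091 to 10825 genes reached 1 TPM per library.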

Additional observations from a re-analysis of the deposited data

Results flagged for a closer look

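The change over actinomycin D differed between KO and WT cells, by limma's test of the difference itself, for 5 members. By 4 h it was -1.30 for Gfi1b. By 8 h it was -0.81 for Gata2, -1.57 for Gfi1b, 0.67 for Tfrc, 2.21 for Hba-a1 and 0.63 for Nfe2, each as KO minus WT on the log2(TPM + 1) scale. Of all tested genes, 0.0538% had a higher and 0.296% a lower change in KO cells by 4 h, and 17.3% and 2.63% by 8 h. The calls of Gfi1b and Gata2 were lost with 0.1 added in place of 1. Those of Tfrc, Nfe2 and Hba-a1 were lost after scaling to the housekeeping list. Gfi1b and Gata2 were at or below 4.26 TPM in all libraries after the drug, and Hba-a1 was at or below 7.43 TPM in all 12 libraries. Tfrc read 49.72 to 130 TPM over all libraries.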

How the results depend on the processing

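Of 1017 values of single members under an alternative, 918 kept their direction and their side of the threshold, 60 kept the direction and lost the call, 12 gained a call and 27 changed sign. The counts of members past the threshold stayed within 1.5 times in 7 of the 9 comparisons. For the difference of the 4 h change the count of 1 became 0 with a mean of at least 5 TPM, where Gfi1b is not tested, and with pseudocounts of 0.1 and 0.5, and ranged from 0 to 1 with 1 library left out. For the difference of the 8 h change the count of 5 became 3 with median-ratio scaling, 2 with scaling to the housekeeping list, 3 with a mean of at least 5 TPM and 2 with pseudocount 0.1, and ranged from 2 to 6 with 1 library left out. With the replicate block the counts were 7 in each comparison within a time or genotype, 1 by 4 h and 5 by 8 h, as without it, and no member's call changed. Replicate numbers are only names here: over 15 pairs of groups the correlation of replicate differences ran from -0.129 to 0.0896.

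Signs changed for values near 0 and for changes against 0 h, which the scaling shifts for all genes alike: the 8 h median of all genes went from -1.40 to -0.05 with median-ratio scaling in WT and from -1.16 to -0.02 in KO cells. With median-ratio scaling Gata1 had 0.37 at 4 h in WT and 0.83 at 8 h in KO cells, Tfrc 0.81 and 1.08 at 4 and 8 h in WT and 0.81 at 4 h in KO cells, and Hba-a1 0.80 at 8 h in WT cells. With scaling to the housekeeping list Gata1 had 0.03 at 4 h in WT and 0.06 at 8 h in KO cells, Tfrc 0.06 and Hba-a1 0.11 at 8 h in WT cells. Among differences of the change, median-ratio and housekeeping scaling gave -0.05 and -0.07 for Nfe2 by 4 h and -0.08 and -0.24 for both Hbb-bt and Hbb-b2 by 8 h, and housekeeping scaling gave -0.02 for Tfrc by 4 h. With 1 library left out, Gata1 ranged from -0.28 to 0.22 at 4 h in WT cells (the ends without WT 4 h replicate 2 and replicate 1), from -0.01 to 0.07 at 4 h in KO cells (without KO 4 h replicate 1 and replicate 2) and from -0.32 to 0.05 at 8 h in KO cells (without KO 8 h replicate 2 and replicate 1), and Hba-a1 from -0.91 to 0.18 at 8 h in WT cells (without WT 0 h replicate 1 and replicate 2). The differences of the 4 h change ranged from -0.19 to 0.31 for Gata1 (without WT 4 h replicate 1 and replicate 2), from -0.00 to 0.16 for Tfrc (without WT 0 h replicate 2 and replicate 1), from -0.15 to 1.37 for Hba-a1 (without KO 0 h replicate 2 and replicate 1), and from -0.08 to 0.12 for Nfe2 (without WT 0 h replicate 2 and replicate 1), which also had -0.07 without WT 4 h replicate 2 and -0.05 without KO 4 h replicate 1. The cause of these changes was not tested.

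Where a left-out library leaves a group with 1, that library is assumed to vary like the other groups. The unknown depth limits Klf1, Gata1, Hba-a1 and, after the drug, Gfi1b, all at a few TPM or less. Shares within a library do not give absolute amounts, so a gain under actinomycin D is not new RNA by itself.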
